A study of Mus musculus with 4 samples.

Results

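The cells described here are 394 of the 1916 cells retained from mouse renal cortex, chosen because their transcripts of S100g and Klk1 outweighed those of 3 neighbouring nephron segments. A member had at least 2 UMIs of S100g and Klk1 together, and that sum was above each of the sums of Umod and Slc12a1, of Slc12a3 and Trpm6, and of Atp6v1g3, Atp6v0d2 and Slc26a4 in the same cell. A UMI (unique molecular identifier) is a random tag that lets each captured mRNA be counted once. The rule gave 64 and 112 members in Akita replicates 1 and 2, and 102 and 116 in Wild-type replicates 1 and 2. Akita mice were C57BL/6-Ins2Akita/J animals, which carry a mutant insulin gene and become diabetic, aged 116 and 119 days. Wild-type mice were their non-mutant counterparts from the same supplier, aged 45 and 51 days. Genotype and age therefore cannot be told apart. Cortex from a single kidney was sieved and digested with collagenase, and the suspension was run by Drop-seq, in which a bead tags the mRNA of a captured cell with a cell barcode of 12 bases. The proposed name for the members was connecting tubule-like, but the values below go against that name for most of them, so they are called S100g/Klk1 cells. Because S100g and Klk1 chose the cells, levels in them against other cells are descriptions and carry no test.

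The connecting tubule joins the distal convoluted tubule to the collecting duct and fine-tunes the calcium, sodium and potassium content of urine. S100g encodes a small calbindin that ferries calcium through the cell, and Klk1 encodes tissue kallikrein, a protease that releases kinins from kininogen. Calb1 encodes the larger calbindin, Hsd11b2 an enzyme that inactivates glucocorticoids and so leaves the mineralocorticoid receptor to aldosterone, and Wfdc2 a secreted protein of the whey acidic protein family. These 5 genes were the markers used for the name.

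A set of 884 barcodes occurred both in Akita replicate 2 and in Wild-type replicate 1, against 3 or 4 for any other pair of libraries. Of the S100g/Klk1 cells, 87 of 112 in Akita replicate 2 and 91 of 102 in Wild-type replicate 1 carried a barcode found in both files. Those 178 entries were 46 barcodes that were members in both files and 86 that were members in 1. Of the partners of those 86, 73 were among the remaining retained cells, 4 were cells of another distal set and 9 were not retained. Over the 46 barcodes, the share of UMIs from S100g and Klk1 in one file followed that in the other (Spearman rho 0.984, over entries that share a barcode, as a description). Shares of cells and the markers' fold changes are therefore also given after assigning every such barcode to the library in which it had relatively more UMIs, after the opposite assignment, and with these barcodes left out. The retained cells held between 557780 and 812747 UMIs per library, with a median of 746.5 to 835 per cell, and Ins2 had 0 UMIs in the retained cells of all 4 libraries, so it could not check the genotype labels.

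The barcodes that carry the strongest S100g and Klk1 signal show both kinds of repetition. The next 8 barcodes, all from Wild-type replicate 2, form 2 groups of 4 that have their first 11 bases in common, and the capital marks the last base, in which they differ.
atccgtctcgaA: atccgtctcgaA
atccgtctcgaC: atccgtctcgaC
atccgtctcgaG: atccgtctcgaG
atccgtctcgaT: atccgtctcgaT
gtccgtctcgaA: gtccgtctcgaA
gtccgtctcgaC: gtccgtctcgaC
gtccgtctcgaG: gtccgtctcgaG
gtccgtctcgaT: gtccgtctcgaT
The first group held 95, 107, 83 and 83 UMIs of S100g beside 106, 124, 96 and 99 of Klk1. S100g and Klk1 together made up between 13.1% and 14.1% of the UMIs in its 4 entries. The second group held 36, 36, 30 and 24 UMIs of S100g beside 76, 99, 69 and 72 of Klk1, with the pair at 17.1% to 18.4% of UMIs. Within a group the entries thus lay close to each other. The following 3 barcodes were members in both files that share cells.
barcode found in both files, A: ttgtagcttcgc
barcode found in both files, B: tgtatgcgcacg
barcode found in both files, C: gctattctcgca
Barcode A had 123 UMIs of S100g and 172 of Klk1 in Akita replicate 2, and 112 and 171 in Wild-type replicate 1. Barcode B had 81 and 173 in Akita replicate 2, and 75 and 172 in Wild-type replicate 1. Barcode C had 84 and 93 in Akita replicate 2, and 82 and 92 in Wild-type replicate 1. An entry of either kind is not an independent cell: the 394 members reduced to 356 groups when barcodes of 1 library that differ at 1 base were joined.

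The S100g/Klk1 cells fell into a minority in which the 2 genes took a large share of the transcripts and a majority in which they were a trace. In 100 members the pair made up at least 2% of the cell's UMIs (median 6.81%, highest 27.0%), a value chosen after the distribution was seen. These cells held 85.1% of all S100g and Klk1 UMIs of the members, but 11.3% of the members' UMIs. In the other 294 the median was 0.184%, and 120 of all members had a sum of exactly 2 UMIs. Below the line, 21 cells had between 1% and 2%, and 2 of these had at least 1.5%. Above it, 23 cells had under 3%, and 11 of these under 2.5%, so part of the high-share members lay close to the line.

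**Figure D1:**
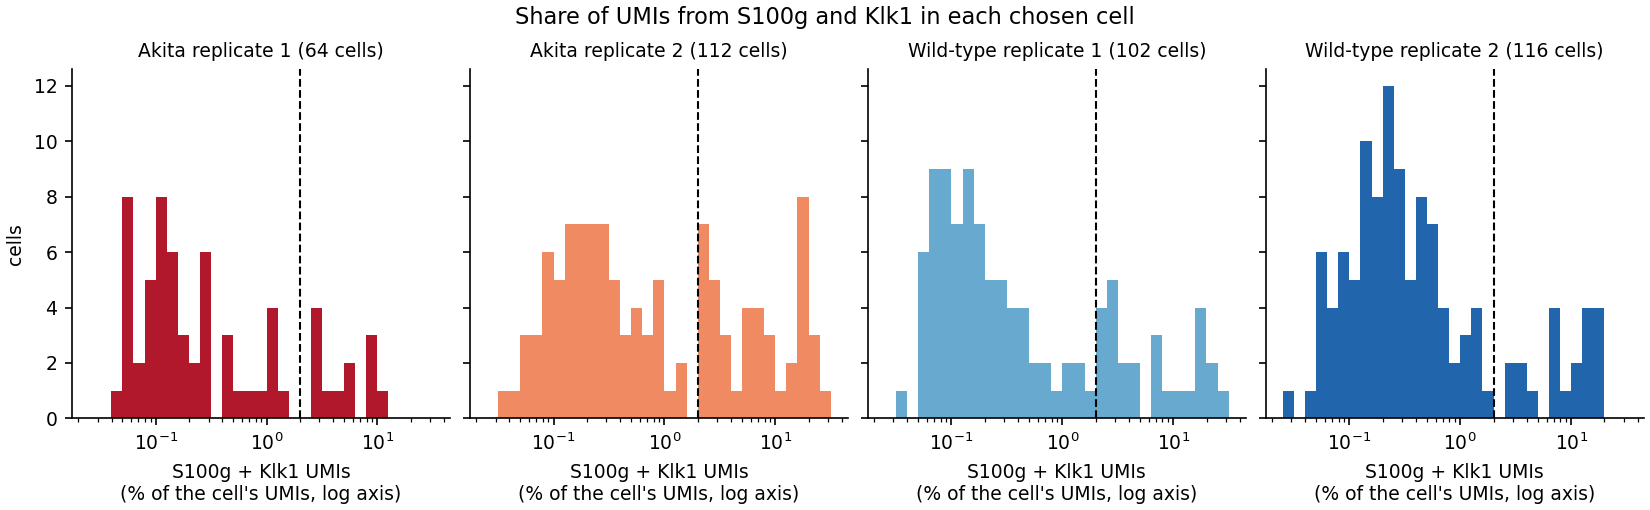
Number of S100g/Klk1 cells (vertical axis) by the percentage of each cell's UMIs that came from S100g and Klk1 (horizontal axis, log scale), in 1 panel per library; the dashed line marks 2%. All 4 libraries have a large group well under 2% and a smaller group above it, with 12, 42, 26 and 20 cells at or above the line from left to right.

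The 294 low-share members carried proximal tubule transcripts at levels close to those of cells that no distal rule picked. Kap, a kidney androgen-regulated protein of the proximal tubule, stood at 40087 CPM in them and at 40334 CPM in those 1186 remaining cells (CPM are the UMIs of a gene scaled to a fixed total of all UMIs in a set of cells, which makes sets of different depth comparable). The 10 proximal tubule markers summed to 56940 CPM in the low-share members and 58605 CPM in those remaining cells. All 10 were detected, among them Lrp2, the endocytic receptor megalin, at 1852 CPM. Calb1 stood at 179.7 CPM in the low-share members and 54.7 CPM in the remaining cells, and Hsd11b2 had 2 UMIs in all 294. A single low-share member held 55 of their 169 UMIs of Calb1. Depth moved with the rule: the median was 1592 UMIs in the low-share members, against 664 in the remaining cells, and its part in bringing cells over a sum of 2 was not tested. At the line of the rule itself, the 120 members with a sum of 2 had Calb1 at 44.4 CPM and Kap at 44076 CPM. The 435 retained cells just outside it, with a sum of 1, had Calb1 at 92.5 CPM and Kap at 37179 CPM.

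The 100 high-share members carried the other markers of the list. Calb1 stood at 3692 CPM in them, with a UMI in 75 of 100, against 171.8 CPM in all retained cells outside the S100g/Klk1 rule. In the sets led by Umod and Slc12a1 and by Slc12a3 and Trpm6 it stood at 493.8 and 477.1 CPM. Wfdc2 stood at 1142 CPM, with a UMI in 63, against 105.1 CPM outside the rule. In the same 2 sets Wfdc2 stood at 438.9 and 246.6 CPM. Hsd11b2 had 68 UMIs in 11 of the 100, against 2 UMIs in the 1522 cells outside. Kap was at 6025 CPM, and the proximal markers summed to 7683 CPM. Markers of the neighbouring distal segments were also present. The 7 distal convoluted tubule markers summed to 6942 CPM in high-share members, against 8232 CPM in the Slc12a3 and Trpm6 set, and to 13852 CPM in those of Akita replicate 1. The 6 thick ascending limb markers summed to 2708 CPM, against 12381 CPM in the Umod and Slc12a1 set. The 7 intercalated cell markers summed to 2058 CPM, against 15695 CPM in the set chosen by Atp6v1g3, Atp6v0d2 and Slc26a4. They came to 12 and 42 cells in Akita replicates 1 and 2, and 26 and 20 in Wild-type replicates 1 and 2. Joining barcodes of a library that differ at 1 base left 7 and 36 in Akita, and 26 and 10 in Wild-type. Counting a barcode found in both files once left 54 in all.

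To compare detection at equal depth, each cell was thinned to 500 UMIs, which left out 17 of the 100 high-share members, 36 of the low-share members and 368 of the remaining cells. S100g was then found in 84.3% of high-share members (95% exact interval 74.7 to 91.4), 29.5% of low-share members (24.0 to 35.4) and 6.85% of the remaining cells (5.21 to 8.80). Without thinning it was found in 89 of 100, 217 of 294 and 171 of 1186. Klk1 was found after thinning in 100% of high-share members (95.7 to 100), 45.3% of low-share members (39.2 to 51.6) and 10.1% of remaining cells (8.16 to 12.4). Kap was found after thinning in 88.0% of high-share members (79.0 to 94.1), 98.1% of low-share members (95.5 to 99.4) and 94.7% of the remaining cells (93.0 to 96.2). The other distal sets had it in 85.7% to 92.5% of thinned cells. The rule moved cells with a leading sum of at least 2 out of the remaining cells, so the shares of S100g and Klk1 there are bounded by the choice of cells and are no measure of background. Hsd11b2 after thinning was in 9.64% of high-share members (4.25 to 18.1), and in 0 of 160 cells of the Slc12a3 and Trpm6 set, a count that allows up to 2.28%. The intervals cover counting error only and take each entry as a cell, so repeated barcodes make them too narrow.

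**Figure D2:**
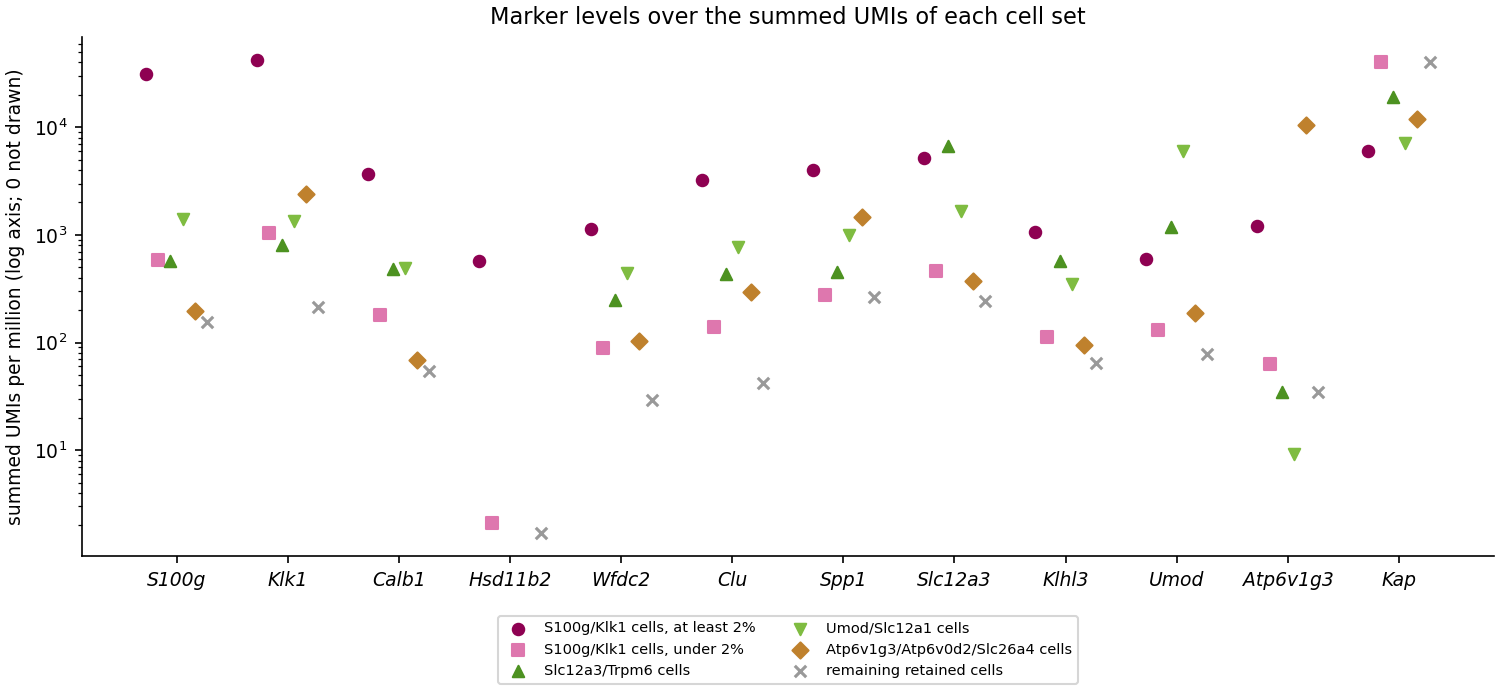
Level of 12 genes (vertical axis, CPM over the summed UMIs of a set of cells, log scale; values of 0 are not drawn) in 6 sets of cells, marked by colour and shape. The high-share S100g/Klk1 cells have Calb1 at 3692 CPM and Hsd11b2 at 567 CPM, while the low-share cells and the remaining cells have Kap at 40087 and 40334 CPM.

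S100g lies at chrX:162961992-162964599 on the minus strand and Klk1 at chr7:44225360-44229618 on the plus strand (GRCm38). Their promoters are shown because the 2 transcripts chose the cells; each run spans 250 bases before to 50 bases after the RefSeq start (GRCm38.p6).
S100g, chrX:162964550-162964849, minus strand: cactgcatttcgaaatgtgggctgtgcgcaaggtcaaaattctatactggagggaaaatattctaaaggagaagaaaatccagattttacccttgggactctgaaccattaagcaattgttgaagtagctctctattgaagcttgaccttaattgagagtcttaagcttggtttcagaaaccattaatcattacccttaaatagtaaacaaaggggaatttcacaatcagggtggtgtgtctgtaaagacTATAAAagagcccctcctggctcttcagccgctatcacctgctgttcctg
Klk1, chr7:44225110-44225409, plus strand: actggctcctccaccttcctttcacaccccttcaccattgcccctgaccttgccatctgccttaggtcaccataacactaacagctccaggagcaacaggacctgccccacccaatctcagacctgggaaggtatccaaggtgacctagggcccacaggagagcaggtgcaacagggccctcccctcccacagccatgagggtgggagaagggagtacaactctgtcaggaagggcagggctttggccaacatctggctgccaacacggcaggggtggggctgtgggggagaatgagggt
Capitals mark a match to TATAAA, searched on both strands, which occurs in the S100g window and in 13.6% of 32851 windows of the same length. The match in the S100g window begins at the RefSeq start itself, not before it. The letters of TATAAA are not in the Klk1 window. AGAACA, searched likewise, is in neither window and in 18.97% of all windows.

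Among the high-share members the balance of the 2 calbindin and kallikrein transcripts varied from all Klk1 to nearly all S100g, and other distal genes varied with it. The members were split by the share of S100g in the pair at 15% and 60%, lines chosen after the values were seen. Klk1 led in 21 cells in which S100g was under 15% of the pair, and S100g was at 0 in 11 of these. In the 21 cells Calb1 stood at 787 CPM and Hsd11b2 at 0 UMIs, which allows up to 118.1 CPM. The 21 held 2 kinds of neighbour transcript: 7 cells had at least 10 UMIs of Slc12a3, the thiazide-sensitive sodium chloride cotransporter of the distal convoluted tubule. Another 5 had at least 5 UMIs of Atp6v1g3, a proton pump subunit of intercalated cells, and 0 cells had both.

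The 53 cells with S100g between 15% and 60% of the pair held all the Hsd11b2 of the high-share members, 68 UMIs in 11 cells. Of the 11, 6 were in Akita replicate 2 and 4 in Wild-type replicate 1. Those 4 carried a barcode also found in the Akita replicate 2 file, so the 11 entries are not all separate cells. Barcode B alone gave 18 of the 68 UMIs in Akita replicate 2 and 12 in Wild-type replicate 1. It also held 27 and 22 UMIs of Atp6v1g3 in those files. Calb1 stood at 3858 CPM in the 53, Clu, a secreted chaperone called clusterin, at 4399 CPM, and Spp1, the secreted phosphoprotein osteopontin, at 5339 CPM. Slc12a3 was lowest here, at 2363 CPM. In these cells the pair took a median of 13.6% of UMIs, against 2.91% in the Klk1-led cells and 5.95% in the S100g-led cells.

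The 26 cells with S100g at 60% or more of the pair had the highest Calb1 and Slc12a3. Calb1 stood at 6241 CPM with a UMI in 24 of 26, and Slc12a3 at 11496 CPM, with at least 10 UMIs in 11 of 26. Klhl3, the adaptor of a ubiquitin ligase that degrades WNK kinases, stood at 2053 CPM, against 883 CPM in the middle group. Clu stood at 1355 CPM, Spp1 at 2422 CPM and Hsd11b2 at 0 UMIs, which allows up to 123.2 CPM. The rule capped Slc12a3 and Trpm6 below the S100g and Klk1 sum in each cell, so the Slc12a3 levels within the members are bounded by the choice of cells. The 3 groups held 16, 39 and 20 distinct barcodes. By library, the Klk1-led group had 5 and 7 cells in Akita and 5 and 4 in Wild-type, the middle group 1 and 24 in Akita and 14 and 14 in Wild-type, and the S100g-led group 6 and 11 in Akita and 7 and 2 in Wild-type.

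**Figure D3:**
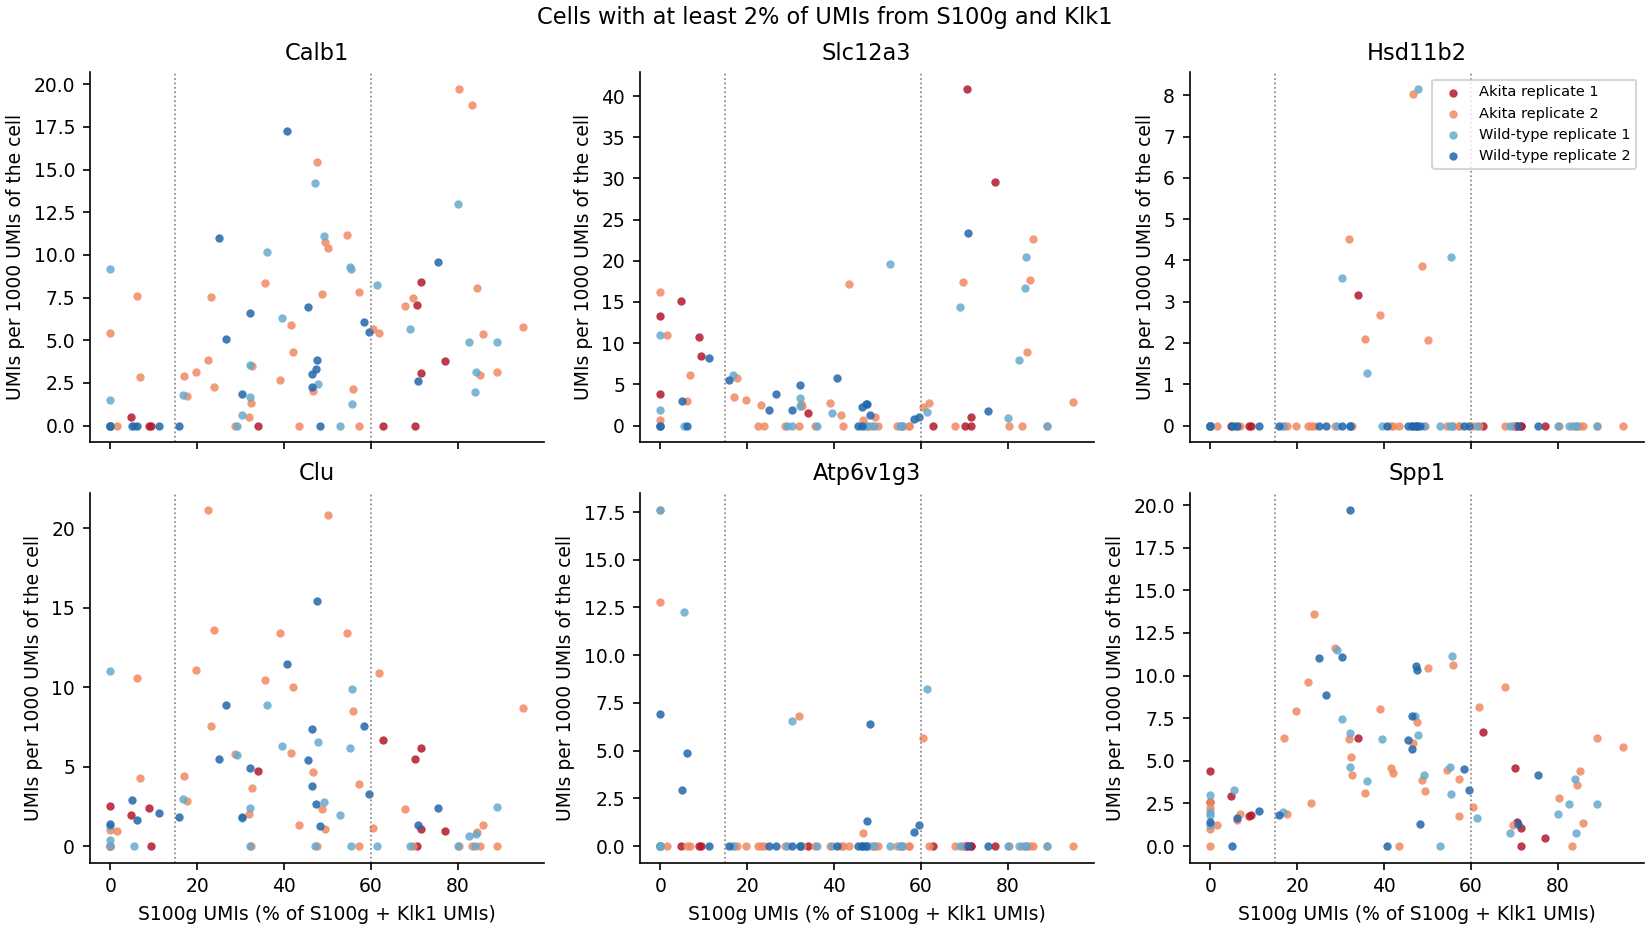
Each point is 1 high-share S100g/Klk1 cell, placed by the percentage of S100g in its S100g and Klk1 UMIs (horizontal axis) and its UMIs of the named gene per 1000 UMIs of the cell (vertical axis), coloured by library; dotted lines mark 15% and 60%. Hsd11b2 is seen between the lines, and the cells with at least 10 UMIs of Slc12a3 number 7, 6 and 11 from left to right; entries that share a barcode appear as near neighbours in the colours of Akita replicate 2 and Wild-type replicate 1.

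Cells of the Atp6v1g3, Atp6v0d2 and Slc26a4 set, chosen by the same kind of rule, also held Klk1 but little S100g. After thinning, Klk1 was in 55.6% of those 81 cells (44.1 to 66.6) and S100g in 8.64% (3.55 to 17.0). The set of 179 cells led by Slc12a3 and Trpm6 had S100g in 23.1% (16.8 to 30.4) and Klk1 in 29.4% (22.4 to 37.1) of 160 thinned cells.

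Of the calcium transport genes, the binding proteins were abundant in the high-share members and the channel was sparse. Trpv5, the apical calcium channel of this segment, had 5 UMIs in 5 members, all of them high-share, and 0 in the other sets of retained cells. No UMI of Trpv6, the related channel, was counted in the members. For export, Slc8a1, the sodium-calcium exchanger, stood at 66.7 CPM in high-share members and 0.854 CPM in remaining cells, from 8 UMIs and 1 UMI. Atp2b4, a plasma membrane calcium pump, stood at 141.7 CPM in high-share members and 3.42 CPM in remaining cells. The related pump gene Atp2b1 stood at 291.7 and 271.6 CPM in the same sets, and Vdr, the vitamin D receptor, at 158.3 and 100.8 CPM. Pth1r, the parathyroid hormone receptor, was lower in high-share members, at 458 CPM, than in remaining cells, at 685 CPM.

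The aldosterone-sensitive genes gave a partial picture. The 3 subunits of the epithelial sodium channel, Scnn1a, Scnn1b and Scnn1g, had 21, 6 and 5 UMIs in high-share members, and the mineralocorticoid receptor gene Nr3c2 had 2. Scnn1a stood at 175.0 CPM there, beside 163.4 CPM in the intercalated set and 2.56 CPM in remaining cells. The potassium channel genes Kcnj1, of the apical membrane, and Kcnj10, of the basolateral membrane, stood at 383 and 575 CPM in high-share members. They stood at 567 and 658 CPM in the Umod and Slc12a1 set, 252.0 and 297.5 CPM in the Slc12a3 and Trpm6 set, and 17.9 and 26.5 CPM in remaining cells. Atp1b1, which encodes the beta subunit of the sodium pump, stood at 7467 CPM in high-share members, against 7525 CPM in the Umod and Slc12a1 set and 1548 CPM in remaining cells. Principal cell genes had few UMIs. The water channel gene Aqp2 had 4 UMIs in all members, Aqp4 had 0, and no UMI of the vasopressin receptor gene Avpr2 was counted. The 7 principal cell markers, which include Scnn1b and Scnn1g, summed to 15 UMIs and 125.0 CPM in high-share members. They summed to 189.2 CPM in the intercalated set and 33.3 CPM in remaining cells. In the Slc12a3 and Trpm6 set they summed to 32.2 CPM, and in the Umod and Slc12a1 set to 18.3 CPM.

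Markers of cells outside the tubule were near 0 in high-share members, except those of red cells. The 4 red cell markers summed to 23 UMIs and 191.7 CPM in high-share members. They summed to 127.6 CPM in low-share members and 378.1 CPM in all retained cells outside the rule. The 5 podocyte, 7 endothelial, 9 macrophage or dendritic and 5 fibroblast markers had 0 UMIs in high-share members, which allows up to 25 CPM each. In low-share members the macrophage or dendritic markers summed to 86 UMIs over 8 of 9 genes, and their level by library was 13.8 and 388 CPM in Akita and 34.3 and 33.9 CPM in Wild-type.

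Of the kallikrein family beyond Klk1, Klk1b5 and Klk1b8 had most of their UMIs in the high-share members. Klk1b5 had 56 UMIs in 33 of them and stood at 467 CPM, and Klk1b8 had 59 UMIs in 38 and stood at 492 CPM; they had 10 and 8 UMIs in low-share members, and 7 and 14 in all retained cells outside the rule. Klk1b4 had 18 UMIs in 12 high-share members. These genes lie in a cluster on chromosome 7 with Klk1, and 12.7% of the 50-base windows of the Klk1b5 transcript and 2.47% of those of Klk1b8 occur unchanged in Klk1. Some of their UMIs may thus have been split between copies when the authors counted, and their levels are uncertain. Of the kininogen genes, which encode the substrates, Kng2 stood at 1425 CPM in high-share members and Kng1 had 7 UMIs there. In the Umod and Slc12a1 set Kng2 stood at 1573 CPM, and in the Slc12a3 and Trpm6 set at 809 CPM.

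Among transcription factor genes, Hoxd8 stood at 442 CPM in high-share members, 338 CPM in the Umod and Slc12a1 set, 233.2 CPM in the Slc12a3 and Trpm6 set and 28.2 CPM in remaining cells. Tfap2b stood at 233.3 CPM in high-share members, and at 192.0, 163.5 and 3.42 CPM in the same sets. Lhx1 stood at 383 CPM in high-share members and 432 CPM in the Slc12a3 and Trpm6 set. Gata3, known from the distal nephron and collecting duct, had 11 UMIs in high-share members. Of 24 genes in this list, 23 had a UMI in the members and 15 had at least 10.

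Ranked by their level in all 394 members over all other retained cells, among 5772 genes with at least 20 UMIs in the members and a UMI in those of each library, the first 20 genes included several carried by the high-share members. Hsd11b2, Klk1b5, S100g, Klk1, Klk1b8, Ltc4s (leukotriene C4 synthase), Calb1 and Clu had most of their member UMIs in high-share members. Cntrl, Yars, Gm6300, Gar1, Gpx8, Nek4, Fryl, Nmi, Gm37009, Hcfc2, Gm3839 and Gm3531 completed the 20, at ratios of 2.43 to 3.86 and with 21 to 40 UMIs each in all members, of which 0 to 11 were in high-share members. S100g was 12.5-fold and Klk1 10.3-fold higher in the members, which the rule ensured. Calb1 was 3.36-fold higher and Clu 2.64-fold higher.

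Ranked in the same way over the 100 high-share members alone, among 694 genes with at least 20 UMIs there, Klk1b5, S100g, Klk1, Klk1b8, Ltc4s and Calb1 came first. Hsd11b2, with 68 UMIs there, was not ranked because it had 0 in the high-share members of Wild-type replicate 2. Clu was 17.4-fold higher than in the cells outside the rule, Wfdc2 10.9-fold, Phactr1 10.3-fold and Spp1 9.49-fold. The next 10 were Ly6c1, Scn4b, Tspan1, Bsnd, Sgms2, Pcolce, Tdrd3, Krt7, Scnn1a and Sfrp1, at 9.01-fold to 5.70-fold. Of these, Bsnd, the barttin subunit of chloride channels, stood at 183.3 CPM in high-share members and 172.0 CPM in the Atp6v1g3, Atp6v0d2 and Slc26a4 set. Krt7, a keratin of simple epithelia, stood at 450.0 CPM in high-share members and 550.4 CPM in that set. Klhl3 was 5.61-fold and Kl, which encodes the hormone co-receptor klotho, 4.29-fold higher. Of the 1522 cells outside the rule, 1186 were remaining cells, and single distal sets stood closer for several of these genes. Clu stood at 3225 CPM in high-share members and 777 CPM in the Umod and Slc12a1 set. Spp1 stood at 4050 CPM in high-share members and 1462 CPM in the intercalated set. Klhl3 stood at 1075 CPM in high-share members and 574 CPM in the Slc12a3 and Trpm6 set. Calb1 in high-share members stood at 1642 and 3974 CPM in Akita, and 3850 and 4153 CPM in Wild-type. Clu stood at 2071 and 3700 CPM in Akita, and 2310 and 4584 CPM in Wild-type. Spp1 stood at 2571 and 4032 CPM in Akita, and 3795 and 5716 CPM in Wild-type. The Akita and Wild-type libraries overlapped for Clu and Spp1, and as counted Akita replicate 1 was the lowest library for all 3 genes, with 12 high-share cells. For Calb1 the second Akita library lay between the Wild-type libraries. The order of libraries changed with the handling of shared barcodes. After their assignment to the library with relatively more UMIs, the 7 high-share members left in Wild-type replicate 1 had Clu at 344 CPM, from 3 UMIs, and Spp1 at 1832 CPM, both below Akita replicate 1.

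The first comparison between genotypes asked whether the S100g/Klk1 cells were more or less common in diabetic mice. They were 20.6% (95% exact interval 16.2 to 25.5) and 18.7% (15.6 to 22.0) of retained cells in Akita replicates 1 and 2. In Wild-type replicates 1 and 2 they were 18.1% (14.99 to 21.5) and 26.3% (22.3 to 30.7). The groups overlapped, since both Akita libraries lay between the Wild-type libraries. The mean was 19.6 ± 1.35% over the 2 Akita libraries and 22.2 ± 5.81% over the 2 Wild-type libraries (SD), so that the difference was -2.57 percentage points (two-sided exact permutation p = 1.00). With 2 libraries against 2 the smallest p this test allows is 0.333. After every barcode found in both was assigned to a single library, the difference was -0.657 points. It was -4.76 points after the opposite assignment and -0.146 points with those barcodes left out, and without Wild-type replicate 2 it turned to 1.54 points.

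The high-share members were 3.86% (2.01 to 6.64) and 7% (5.09 to 9.34) of retained cells in Akita, and 4.61% (3.03 to 6.68) and 4.54% (2.79 to 6.92) in Wild-type. As counted, 1 Akita library lay above and 1 below both Wild-type libraries. That order did not hold after every barcode found in both was assigned to the library with relatively more of its UMIs. Akita replicate 2 then had 35 of 432 cells (8.10%, 5.71 to 11.1), and Wild-type replicate 1 had 7 of 308 (2.27%, 0.919 to 4.63), below Akita replicate 1. The opposite assignment gave 6.06% (3.74 to 9.21) in Akita replicate 2 and 5.19% (3.15 to 7.99) in Wild-type replicate 1. With these barcodes left out, 13 of 162 cells in Akita replicate 2 and 0 of 110 in Wild-type replicate 1 were high-share. These settings for high-share members were added after seeing the data. Of the 42 in Akita replicate 2, 29 had a barcode that was also in the Wild-type replicate 1 file, and all 26 in Wild-type replicate 1 had one in the Akita replicate 2 file.

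**Figure D4:**
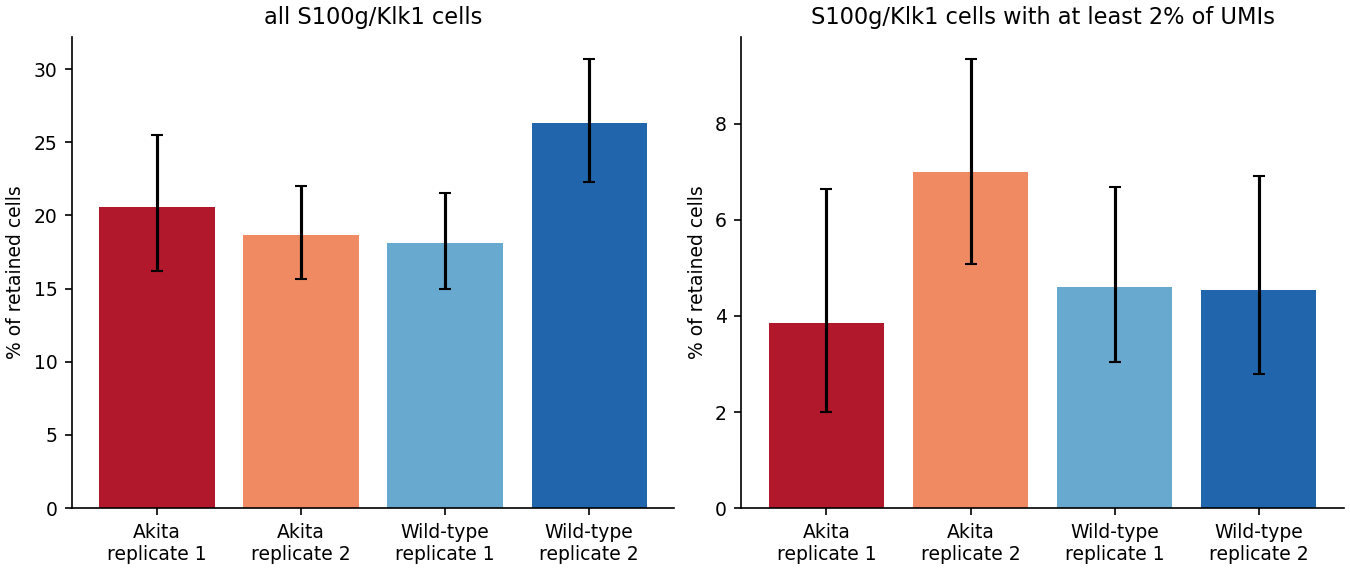
Percentage of retained cells (vertical axes, from 0) that were S100g/Klk1 cells (left) or high-share S100g/Klk1 cells (right) in each library; bars are the observed share and error bars the exact 95% interval, which covers counting error only. Akita replicates 1 and 2 stand at 20.6% and 18.7% on the left, and Wild-type replicates 1 and 2 at 18.1% and 26.3%.

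The second comparison asked which genes differed between Akita and Wild-type within the S100g/Klk1 cells. UMIs were summed over the members of each library, giving 231937 and 215843 UMIs in Akita, and 269436 and 343349 in Wild-type. No gene passed: edgeR's quasi-likelihood test called 0 of 3682 genes (0%) at an adjusted p under 0.05. At an unadjusted p under 0.05 it gave 64 genes, while DESeq2 gave 12 and limma-voom 69, and both of these also called 0 after adjustment. The labels give each library its own age but name no animals, so these p-values measure the spread between libraries. Akita replicate 2 and Wild-type replicate 1 are not independent in this test, since barcodes found in both files held most of their members' UMIs. With those barcodes left out, the members held 15560 UMIs in Akita replicate 2 and 9279 in Wild-type replicate 1. In 12.3% of the tested genes both Akita libraries stood above both Wild-type libraries, and in 13.5% both stood below, 25.8% together. After assigning every barcode found in both to a single library, edgeR called 0 of 3188 genes (0%), with 92 at an unadjusted p under 0.05, and 29.6% of genes did not overlap.

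None of the 5 markers passed the test. S100g and Klk1 also chose the members, so their levels there depend on the rule. S100g stood at 1854 and 7306 CPM in Akita, and 4728 and 2910 CPM in Wild-type (log2 fold change 0.27, SE 0.47, adjusted p = 1.00 by edgeR). Both the highest and the lowest value were in Akita. Klk1 stood at 2294 and 10749 CPM in Akita, and 5834 and 4593 CPM in Wild-type (0.34, SE 0.50), with the same order of libraries at the extremes. Calb1 stood at 155.2 and 1066 CPM in Akita, and 653 and 495 CPM in Wild-type (0.10, SE 0.49). Wfdc2 stood at 181.1 and 315 CPM in Akita, and 174.4 and 183.5 CPM in Wild-type (0.48, SE 0.31). Hsd11b2 had 2 and 40 UMIs in Akita, and 27 and 1 in Wild-type (0.99, SE 0.88). Akita replicate 2 and Wild-type replicate 1, the libraries that share barcodes, held nearly all of it. All 27 UMIs of Wild-type replicate 1 were in high-share members, whose barcodes were all also in the Akita replicate 2 file. The 2 libraries are thus not independent for Hsd11b2, nor for other genes counted in barcodes found in both files. The groups overlapped for all 5, and all 5 had an adjusted p of 1.00.

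High-share members were 12 of 64 and 42 of 112 in Akita, and 26 of 102 and 20 of 116 in Wild-type. The highest levels of all 5 markers and the highest number of high-share members were both in Akita replicate 2, and the part of that number in the fold changes was not tested. The fold changes also rested on single libraries; in the fits that leave a library out, an arm of 1 library is assumed to vary like the other group, so these p-values rest on the spread of that group. Without Akita replicate 2, Calb1 fell by 1.91 on the log2 scale (adjusted p = 0.000493 by edgeR). Hsd11b2 rose by 1.98 without Akita replicate 1 (adjusted p = 0.00445 by edgeR), and by 4.91 without Wild-type replicate 1, which left 1 UMI in Wild-type (adjusted p = 0.000342 by edgeR). After that assignment of barcodes, the log2 fold changes were 0.82 for S100g, 1.41 for Klk1, 0.32 for Calb1 and 0.90 for Wfdc2. After the opposite assignment they were 0.21, -0.59, 0.61 and 0.32 for the same genes in that order. With the barcodes left out they were 1.90, 2.18, 1.93 and 1.75. That fit rested on 25 members with 15560 UMIs in Akita replicate 2 and 11 members with 9279 UMIs in Wild-type replicate 1. Of those 11 members, 0 were high-share. In those 3 fits each of the 4 genes had an adjusted p of 0.999 or 1.00 by edgeR, and Hsd11b2 was not tested.

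Of the 10 genes with the smallest p at a mean of at least 200 CPM, 5 in each direction, none passed. Napsa, a lysosomal aspartic protease, stood at 1030 and 899 CPM in Akita, and 583 and 431 CPM in Wild-type (log2 fold change 0.94, SE 0.28, unadjusted p = 0.00357 and adjusted p = 1.00 by edgeR). The groups did not overlap. Its level was 16.7 CPM in high-share members, 783 CPM in low-share members and 809 CPM in remaining cells. Slc7a13, an amino acid transporter of the late proximal tubule, stood at 548 and 347 CPM in Akita, and 148.5 and 358 CPM in Wild-type (0.83, SE 0.33). Cd36, a fatty acid receptor, stood at 379 and 394 CPM in Akita, and 259.8 and 238.8 CPM in Wild-type (0.65, SE 0.27). Zfp91, which encodes a zinc finger protein, had a log2 fold change of 0.68, and the unnamed gene ENSMUSG00000095041 one of 0.82.

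In the lower direction, Rps4x, a ribosomal protein gene, stood at 185.4 and 254.8 CPM in Akita, and 382 and 443 CPM in Wild-type (log2 fold change -0.89, SE 0.28, unadjusted p = 0.00482 and adjusted p = 1.00 by edgeR). Cela1, a serine protease of the elastase family, stood at 284.6 and 199.2 CPM in Akita, and 386 and 492 CPM in Wild-type (-0.84, SE 0.28). The groups did not overlap for either gene. Acaa2, a mitochondrial enzyme of fatty acid oxidation, had a log2 fold change of -0.72, Id2, an inhibitor of transcription factors, one of -0.66 and the pseudogene Ybx1-ps2 one of -0.66. These 10 genes all had an adjusted p of 1.00.

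**Figure D5:**
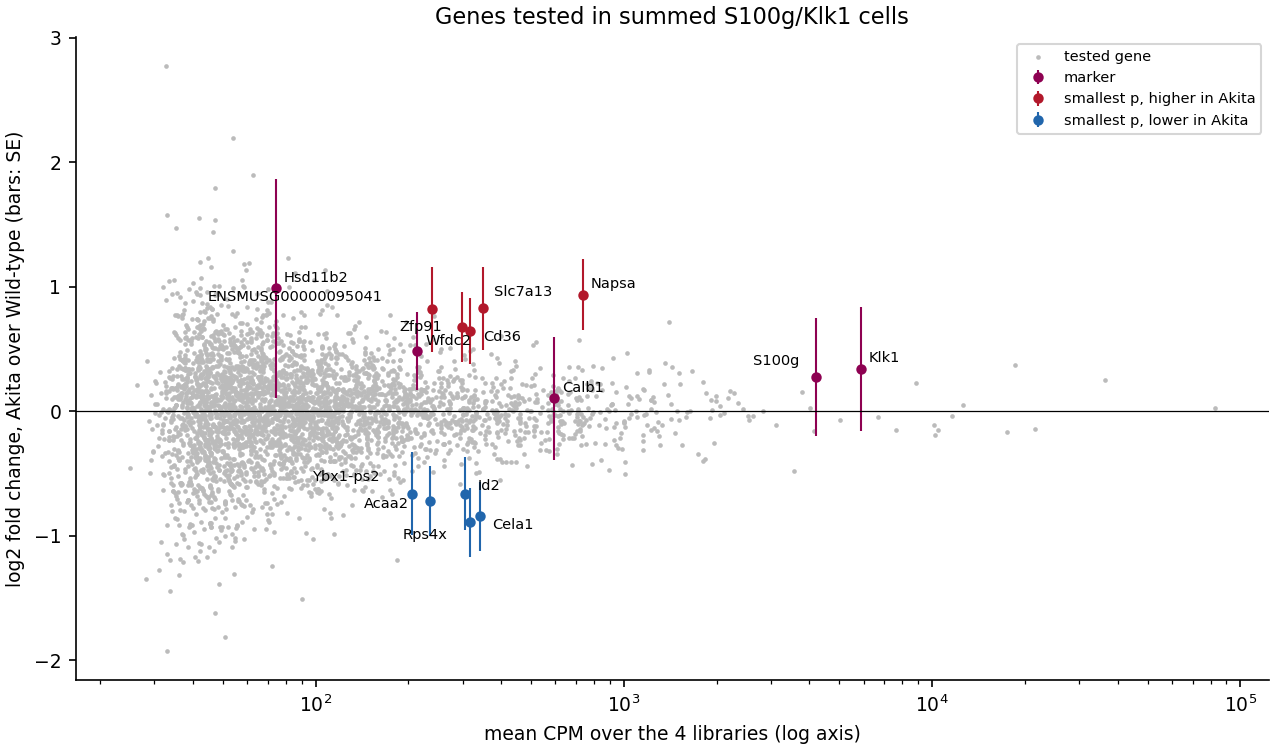
Log2 fold change of Akita over Wild-type (vertical axis) against mean CPM over the 4 libraries (horizontal axis, log scale) for the 3682 genes tested in summed S100g/Klk1 cells; named genes are coloured with bars of 1 SE. The 5 markers lie between 0.10 and 0.99, and Napsa at 0.94 and Rps4x at -0.89 have the smallest p of each direction among genes with a mean of at least 200 CPM, but no gene passed the adjusted threshold.

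By role, no list held a called gene. Of 13 calcium transport genes, 12 had a UMI in the members, 8 were tested and 0 were called, with a median log2 fold change of 0.08, beside 0.01 over all tested genes. Pth1r stood higher in both Akita libraries, at 1030 and 676 CPM, against 609 and 545 CPM in Wild-type (0.58, SE 0.28). Atp2b1 stood lower in both, at 245.8 and 240.9 CPM, against 274.6 and 256.3 CPM in Wild-type (-0.11, SE 0.27). Of 23 genes of aldosterone-sensitive transport, 20 had a UMI, 11 were tested and 0 were called, with a median of 0.13. Scnn1a, Prss8 and Kcnj16 stood higher in both Akita libraries and Usp2 lower in both, so that groups did not overlap in 4 of 11, and in 2 of 8 calcium genes, beside 25.8% of all tested genes. Scnn1a stood at 43.1 and 55.6 CPM in Akita, and 18.6 and 14.6 CPM in Wild-type (1.58, SE 0.69, unadjusted p = 0.0343 and adjusted p = 1.00 by edgeR), from 32 UMIs in all.

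Of 14 kallikrein genes, 13 had a UMI, 3 were tested and 0 were called; Klk1b5 had a log2 fold change of 0.59 (SE 0.49) and Klk1b8 one of -0.29 (SE 0.46), with overlapping groups. Of 24 transcription factor genes, 9 were tested and 0 were called. Lhx1 stood at 69.0 and 101.9 CPM in Akita, and 129.9 and 142.7 CPM in Wild-type (-0.66, SE 0.36), and Tfcp2l1 stood at 107.8 and 125.1 CPM in Akita, and 107.6 and 104.8 CPM in Wild-type (0.15, SE 0.35). Of 19 magnesium and distal convoluted tubule genes, 13 were tested and 0 were called. Slc12a3 stood at 1168 and 1200 CPM in Akita, and 876 and 853 CPM in Wild-type (0.47, SE 0.27), and the groups did not overlap. The rule capped Slc12a3 and Trpm6 below the S100g and Klk1 sum in each member, so this level depends on the choice of cells. Of the 13 genes, 1 stood higher and 1 lower in both Akita libraries, while groups did not overlap in 25.8% of all tested genes.

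In the remaining lists, 0 genes were called. The medians of the log2 fold changes were 0.14 over 6 tested junction and keratin genes, 0.17 over 8 secreted protein genes and 0.17 over 4 renin, kallikrein and kinin genes. They were -0.06 over 4 immediate early and stress genes, 0.12 over 3 tubular injury genes and -0.02 over 9 glucose-responsive and glycolysis genes. The 34 nuclear genes of oxidative phosphorylation, all tested, had a median of 0.01, and 10 tested mitochondrially encoded genes one of -0.00. Clu, of the secreted and injury lists, stood at 207.0 and 982 CPM in Akita, and 382 and 451 CPM in Wild-type (0.53, SE 0.44).

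The third comparison asked whether any Akita change in the S100g/Klk1 cells differed from that in all other retained cells, with both kinds of cell from each library in 1 edgeR fit. It called 1 of 5289 genes (0.0189%), Cd74, which encodes the invariant chain of antigen presentation in immune cells. The Akita change was higher in the S100g/Klk1 cells by 5.10 on the log2 scale (SE 0.72, adjusted p = 0.00117 by edgeR). In the members Cd74 had 0 and 29 UMIs in Akita, and 2 and 2 in Wild-type. A single barcode in Akita replicate 2 held 24 of the 29. The same barcode was also a retained cell outside the members in Wild-type replicate 1, and leaving it out removed both entries. Retained cells of Wild-type replicate 1 then went from 564 to 563, while its members stayed at 102. Without that barcode 0 genes were called, with 128 at an unadjusted p under 0.05. DESeq2 and limma-voom, with the barcode kept, called 0 as well. Of the 5 markers, the difference was -0.61 (SE 0.59) for S100g and 0.16 (SE 0.48) for Klk1. These 2 values are descriptions only, since the rule chose the members by both genes and so bounded them in the other cells. The difference was 0.18 (SE 0.50) for Calb1, with an adjusted p of 0.999 by edgeR. It was 0.70 (SE 0.29) for Napsa and 0.75 (SE 0.30) for Cd36, also with an adjusted p of 0.999 by edgeR.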

How the data were processed

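Drop-seq counts from 2 Akita and 2 Wild-type libraries were used, with groups from the sample titles. The deposited files hold whole UMI counts per gene and barcode without normalization. Per the submitters' processing notes, the tools were STAR 2.5.2b, featureCounts 1.6.0 and UMI-tools 0.5.3, and the build was GRCm38. Barcodes with an undetermined base or at least 11 identical bases were dropped, and cells with at least 200 genes and at most 50% mitochondrial UMIs were retained. No doublet caller was run. Gene identifiers were matched to symbols in GENCODE for GRCm38; coordinates are 1-based.

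The members, marker and gene lists and the rules for named genes were chosen with earlier results of these data known. Named were the 5 markers, members of the lists by their UMIs, the 20 genes with the largest ratio of CPM in members over other cells (at least 20 UMIs), and the 5 per direction with the smallest p at a mean of at least 200 CPM. UMI counts were summed per library over members and tested in R 4.3.3 with edgeR 4.0.16 (TMM, filterByExpr, quasi-likelihood, Benjamini-Hochberg, threshold 0.05), with DESeq2 1.42.0 and limma 3.58.1 as alternatives. The difference in change between members and other cells used the sums of both cell sets with library as a block. Shares have exact Clopper-Pearson 95% intervals and an exact two-sided permutation test. A count of 0 allows up to 3 counts; intervals and limits cover counting error only. Steps were tested on simulated data. Alternatives covered shared barcodes, cell filters, scaling, tools, the replicate block and each library left out. The labels also mention 24 weeks of housing with 8 animals a group, which differs from the ages given for the samples.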

Additional observations from a re-analysis of the deposited data

Results flagged for a closer look

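Cd74 stands out because its Akita change in the S100g/Klk1 cells differed from that in all other retained cells by 5.10 on the log2 scale (SE 0.72, adjusted p = 0.00117 by edgeR). In the members it had 0 and 29 UMIs in Akita and 2 and 2 in Wild-type. In all other retained cells it had 0 and 28 UMIs in Akita and 31 and 43 in Wild-type. A single member barcode of Akita replicate 2 held 24 of the 29, and a single other cell of Wild-type replicate 2 held 42 of the 43. H2-Ab1, a class II antigen gene, had up to 16 UMIs in a single member of Akita replicate 2. Without the member barcode richest in Cd74, an alternative chosen after seeing the data, 0 genes were called. That alternative also left out the entry of the same barcode in Wild-type replicate 1, where it counted among the other retained cells.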

How the results depend on the processing

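The difference in the share of members was -2.57 points and ranged from -6.68 to 1.54 when each library was left out in turn, positive without Wild-type replicate 2. The count of called genes in members, 0 in the fit given, was 4 with no filter on low counts and ranged from 0 to 8 when each library was left out, with 4 and 8 when Akita replicate 1 or 2 was absent and 2 and 0 when Wild-type replicate 1 or 2 was absent. Calls of the third comparison, 1 in the fit given, were 0 with shared barcodes left out, with each kept in the other file, under a minimum of 500 genes, under a limit of 25% on mitochondrial UMIs, with at least 3 UMIs of S100g and Klk1, with DESeq2, with limma-voom and without the barcode richest in Cd74. They ranged from 0 to 8 when each library was left out.

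Of 207 values of 15 named genes under the alternatives, 192 kept their direction. The genes named for a small p were picked in the main fit, so their kept direction is no independent check. The 15 reversed values were those of markers, apart from Cd36 with each shared barcode kept in the other file. With each library left out in turn, log2 fold changes ranged from -1.08 to 0.96 for S100g, -1.22 to 1.07 for Klk1, -1.91 to 0.92 for Calb1, -2.46 to 4.91 for Hsd11b2 and -0.0066 to 0.85 for Wfdc2. The lowest of each came without Akita replicate 2. Without Wild-type replicate 2, S100g was at -0.08, Calb1 at -0.13 and Hsd11b2 at -0.10. With each shared barcode kept in the other file, Klk1 was at -0.59 and Cd36 at -0.071; at most 25% mitochondrial UMIs gave -0.048 for Klk1 and -0.080 for Calb1, and at least 500 genes gave -0.20 for Calb1. The cause was not tested.

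Replicate numbers were not taken as pairs in the main fit. Deviations from the group means correlated at -0.157 for same-numbered libraries and at 0.157 for crossed pairs. With 2 libraries per group these values mirror each other. Akita replicate 2 and Wild-type replicate 1, a crossed pair, also share barcodes, so the check cannot decide whether libraries are paired. With the replicate block 0 genes were called in members, Klk1 was at -0.038 and Calb1 at -0.31. The replicate block with each shared barcode kept in 1 file called 8 genes. A crossed block, chosen after seeing the data, called 0 genes, with 93 at an unadjusted p under 0.05, against 46 with the replicate block.

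Depth limits these results: members of a library held at most 343349 UMIs, so 0 UMIs allow at least 8.74 CPM there, and Hsd11b2 could not be tested with shared barcodes left out or kept in 1 file.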

Other observations

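Ces1g, a carboxylesterase gene, was singled out after its values were seen. In the S100g/Klk1 cells it had 0 and 2 UMIs in Akita replicates 1 and 2, and 1 and 45 in Wild-type replicates 1 and 2, with at most 12 in a single cell. In all other retained cells it had 0 and 2 UMIs in Akita and 3 and 24 in Wild-type. With all 4 libraries it did not pass the filter on low counts and was not tested. With no filter on low counts edgeR called it (adjusted p = 0.00904), with 45 of its UMIs in Wild-type replicate 2.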
